A study of Mus musculus with 12 samples.

Results

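Sigirr encodes an inhibitory receptor of the interleukin-1 receptor and Toll-like receptor superfamily, and it is described here together with 9 genes of the signalling chain that it restrains: the receptors Il1r1, Il1rap, Tlr2 and Tlr4, the adaptor Myd88, the kinases Irak1, Irak2 and Irak4, and the ubiquitin ligase Traf6. The 10 genes were picked by symbol from the 43279 genes of the authors' table of normalised counts, and all 10 were found there. They were chosen with the difference between genotypes at Sigirr already known, so the genotype differences of these 10 genes are given as descriptions, with no test. The libraries came from the bone marrow of adult naive mice of 2 genotypes, wild-type C57BL/6 and Osmr-/-, which lack the oncostatin M receptor gene. The labels do not state the sex, the exact age or the strain background of the Osmr-/- mice. From each mouse 1000 cells were sorted as lineage-negative, KIT+, SCA1+, FLT3- and CD48-, a gate that holds long-term and short-term haematopoietic stem cells, and 1 polyA+ RNA library was made per mouse by SMART-Seq v4. Columns for 6 wild-type mice (numbers 1 to 6) and 5 Osmr-/- mice (numbers 1, 2, 3, 5 and 6) were used, and the fourth Osmr-/- library is not analysed here.

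Interleukin-1 receptors and Toll-like receptors share an intracellular domain, the TIR domain. When a ligand binds, the receptor recruits the adaptor MyD88, which assembles IRAK4, IRAK1 and IRAK2, and these kinases pass the signal through TRAF6 to the IKK complex, NF-kB and the MAP kinases. SIGIRR carries the same kind of domain but does not signal in the usual way, and it dampens this route. In bone marrow, interleukin-1 and Toll-like receptor ligands are known to push haematopoietic stem cells towards cycling and myeloid output.

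The 11 libraries held 9500968 to 22144976 counted reads. Genes with reads numbered 16508 to 18797 in wild type and 15651 to 16348 in Osmr-/-, without overlap, and mitochondrial transcripts took 3.91% to 8.85% and 7.12% to 8.22% of reads. The part of these library differences in the results was not tested. Transcripts of the sorted population were present in every library: all 10 genes of a stem cell marker list were detected, with summed normalised counts of 22466 to 31849 in wild type and 23295 to 33792 in Osmr-/-. Flt3 (229 to 735 normalised counts) and Cd48 (275 to 1446 normalised counts), whose proteins the gate excludes, were also present. Osmr itself had reads in 3 of 6 wild-type and 3 of 5 Osmr-/- libraries, with at most 6.72 and 1.95 normalised counts, so its level in these cells is too low to check the genotype labels. Ddx3y, on the Y chromosome, was at 897 to 2570 in wild type and 1319 to 2366 in Osmr-/-, so all 11 libraries held transcripts of the Y chromosome. Xist was at 12.0 to 47.4 in wild type and 1.13 to 90.8 in Osmr-/-. Both genes are given because Irak1 lies on the X chromosome. Libraries numbered 1 to 3 and 4 to 6 stood apart in earlier results of these data, with Malat1 at 9975 to 109658 and 130004 to 230983, so the genotype differences of the 10 genes, and of the other genes described in full, are also given within these 2 sets, which are no label of the study.

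Sigirr lies on mouse chromosome 7 (chr7:141091175-141100572, minus strand, mm10 coordinates with GENCODE M21 genes), and no other annotated gene overlaps it. In wild type its normalised counts were 335, 327, 249, 436, 386 and 267 in mice 1 to 6. In Osmr-/- they were 155, 48.5, 77.3, 69.0 and 82.0 in mice 1, 2, 3, 5 and 6. Every Osmr-/- value lay under every wild-type value, and knock-out 1 came nearest to the wild-type range. The means were 333 ± 70.7 (SD, n = 6) and 86.4 ± 40.5 (SD, n = 5). On the log2(normalised count + 1) scale used throughout, the difference, Osmr-/- minus wild type, was -2.02 (SE 0.35), a level 4.04-fold lower. Within numbers 1 to 3 it was -1.84, and within numbers 4 to 6 it was -2.23. Of the 13358 genes with at least 10 normalised counts in at least 5 libraries, 3.13% had a difference more negative than that of Sigirr. These values rest on 41 to 644 reads per library, 2483 reads in wild type and 389 in Osmr-/-. Since Sigirr led to the choice of these genes, its difference is what was selected and supports nothing by itself. In RNA from sorted cells, fewer cells that express a gene and less RNA of it per cell cannot be told apart.

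**Figure D1:**
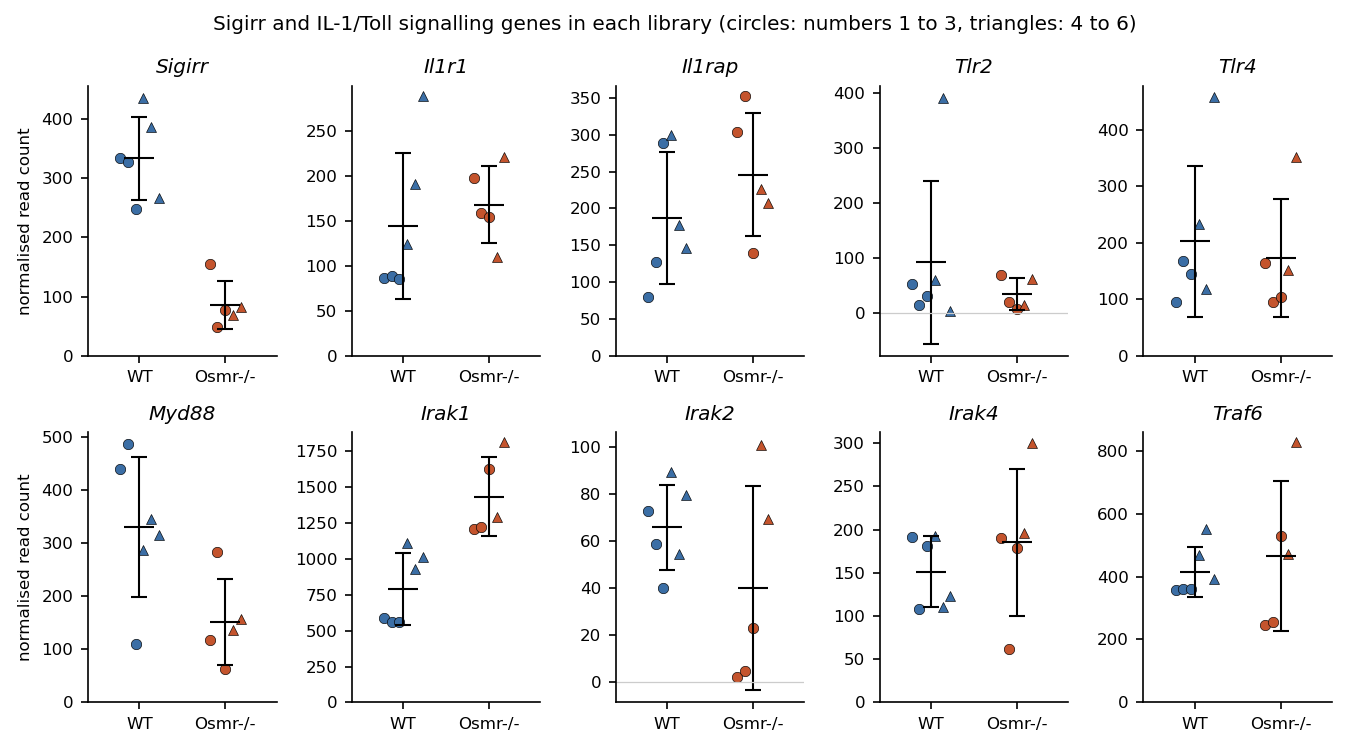
Normalised read counts (linear axis) of the 10 genes, 1 panel per gene, in the 6 wild-type and 5 Osmr-/- libraries; each point is 1 mouse (circles: numbers 1 to 3, triangles: 4 to 6) and each line a group mean with its SD. The Osmr-/- points of Sigirr (48.5 to 155) sit below all wild-type points (249 to 436), those of Irak1 (1210 to 1818) sit above theirs (558 to 1108), and the other 8 genes overlap.

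Transcripts of other blood cell types also differed between the libraries, and their part in the Sigirr values was not tested. An erythroid list of 12 genes, led by Car2 and Car1, summed to 18037 to 58015 in wild type and to 12012 to 18325 in Osmr-/-. Car2 alone was at 14585 to 41773 in wild type and 8959 to 14923 in Osmr-/-. Car1 was at 1711 to 22648 and 225 to 2601, so these sums mostly follow these carbonic anhydrase genes. Within wild type, mice 1 to 3 had erythroid sums of 53199 to 58015 and mice 4 to 6 of 18037 to 20886. Sigirr was at 249 to 335 in the former and at 267 to 436 in the latter. The blood group gene Rhd, at 90.8 to 543 in wild type and 0 to 39.6 in Osmr-/-, and Klf1, the erythroid transcription factor gene, at 160 to 524 and 0 to 127, did not overlap between genotypes. Of the erythroid list, Slc4a1 stayed under 10 normalised counts in every library. A monocyte and macrophage list, led by Lyz2, summed to 9549 to 15194 in wild type 1 to 3 and to 4227 to 7011 in the other 8 libraries, and of its genes Cx3cr1 stayed under 10 throughout. A granulocyte list of 11 genes summed to 29113 in knock-out 3, led by S100a8 (10780), S100a9 (7277) and Camp (5197), and to 3416 to 5997 in the other 10 libraries, and Ctsg, a gene of that list, had no reads in any. Without knock-out 3 the Sigirr difference was -2.003.

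Sigirr was compared with the 5 annotated genes on each side of it, to see how far along the chromosome a difference reached. The nearest genes are Pkp3, a desmosomal plakophilin gene 664 bases away, and Ano9, a scramblase family gene 639 bases away. Pkp3 had 155 ± 91.6 (SD, n = 6) normalised counts in wild type and 100.1 ± 113 (SD, n = 5) in Osmr-/-, and its libraries overlapped widely (3.10 to 241 and 3.55 to 268). Its difference of -1.17 (SE 1.18) had a limma adjusted p of 0.629, and it turned from -3.01 within numbers 1 to 3 to 1.19 within numbers 4 to 6. Ano9 had at most 10.1 normalised counts in any library. B4galnt4, a glycosyltransferase gene, was at 33.6 ± 20.9 and 14.5 ± 20.3, and Ptdss2, a phosphatidylserine synthase gene, at 121 ± 62.3 and 105 ± 71.9, with limma adjusted p of 0.391 and 0.878. Rnh1, the ribonuclease inhibitor gene and the fourth gene on the side of Ano9, was the other gene of this stretch whose groups did not overlap. It had 1401, 1033, 863, 733, 911 and 342 normalised counts in wild-type mice 1 to 6. In Osmr-/- it had 180, 333, 289, 340 and 276. Its highest Osmr-/- value and its lowest wild-type value were almost equal, and its difference of -1.55 (SE 0.33), at -2.05 and -0.995 within the 2 number sets, had a limma adjusted p of 0.0717. Of the 4 tested genes around Sigirr, 0 passed the limma threshold of 0.05 and 1, Rnh1, had an unadjusted p under 0.05, as did 18.0% of all tested genes. With edgeR 0 passed and with DESeq2 1 passed, Rnh1. Over 23 alternatives the adjusted p of Rnh1 ran from 0.000504 to 0.179 and passed in 6. The remaining flanking genes gave little or nothing: Ifitm6 had at most 32.8 normalised counts, Gm17387 and Gm24962 had no reads, and Gm45299 and Gm5905 had no value.

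**Figure D2:**
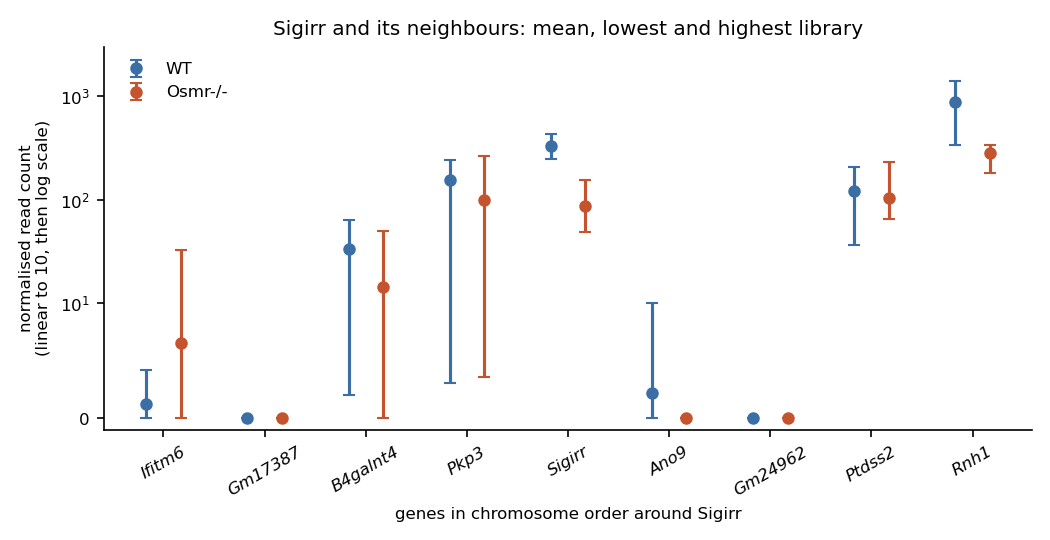
Normalised read counts (linear to 10, then a log axis) of Sigirr and the genes around it on chromosome 7, in chromosome order along the horizontal axis; points are group means of 6 wild-type and 5 Osmr-/- mice and bars run from the lowest to the highest library. Sigirr and Rnh1 have separate groups, while Pkp3, B4galnt4 and Ptdss2 overlap.

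Among the receptors, none separated the genotypes. Il1r1 encodes the signalling receptor for interleukin-1. It had 86.8, 89.1, 85.6, 124, 191 and 289 normalised counts in wild-type mice 1 to 6 and 197, 158, 155, 110 and 221 in the Osmr-/- mice. The Osmr-/- values lay inside the wild-type range, and 5 of 5 were above the wild-type median. The difference was 0.34 (SE 0.41), at 0.95 within numbers 1 to 3 and -0.28 within numbers 4 to 6, so its direction turned between the 2 sets. Without wild type 6 it was 0.58, and without wild type 3 it was 0.23. Il1rap encodes the accessory chain that several receptors of the family share. Its values were 79.5, 127, 289, 300, 178 and 147 in wild type and 304, 352, 139, 226 and 207 in Osmr-/-. Here 2 of 5 Osmr-/- libraries exceeded the wild-type maximum, by little in the case of knock-out 1, and the difference was 0.47 (SE 0.40), with 0.78 and 0.12 within the number sets. It was 0.26 without wild type 1.

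Tlr2, a receptor for bacterial lipoproteins, was the least even of the 10 genes. It had 52.0, 13.4, 31.2, 59.8, 390 and 3.10 normalised counts in wild type and 69.1, 18.9, 6.44, 14.4 and 60.5 in Osmr-/-. A single library, wild type 5, carried most of the wild-type signal, and the fewest reads in a library were 3. The difference of -0.55 (SE 1.01), at -0.42 and -0.58 within the number sets, became 0.14 without wild type 5. The monocyte and macrophage sum of wild type 5, 6109, was within the range of the other libraries, but Lyz2 made up 5390 of it. The part of such cells in the Tlr2 value was not tested. Tlr4, the lipopolysaccharide receptor, had 95.1, 167, 145, 234, 119 and 458 in wild type and 164, 94.6, 104, 151 and 352 in Osmr-/-. A single library of each genotype stood above the rest, wild type 6 and knock-out 6. Its difference was -0.19 (SE 0.46), with -0.17 and -0.02 within the number sets, and it became 0.09 without wild type 6. Of the 12 Toll-like receptor genes in the table, Tlr8 and Tlr13 had no reads. Tlr1, Tlr5, Tlr6, Tlr7, Tlr9, Tlr11 and Tlr12 fell short of the filter on low values, the highest of their values being 58.0 for Tlr6.

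Myd88 encodes the adaptor that most of these receptors use. It had 440, 488, 111, 286, 345 and 315 normalised counts in wild type and 118, 284, 63.2, 136 and 158 in Osmr-/-. All 5 Osmr-/- values were under the wild-type median of 330, yet the groups overlapped, because wild type 3 was low and knock-out 2 was high. The means were 331 ± 132 (SD, n = 6) and 152 ± 81.7 (SD, n = 5), a difference of -1.15 (SE 0.44), with -1.16 and -1.10 within the 2 number sets. Myd88 shares 290 exonic bases with Acaa1a on the opposite strand, a gene of peroxisomal fat breakdown, at 131 ± 60.1 and 55.1 ± 41.7. The sources do not say whether counting used strand, so reads of the pair cannot be told apart in that stretch.

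Irak1 was the other gene of the 10, beside Sigirr, whose genotypes were fully separate, in the opposite direction. It encodes the kinase that MyD88 and IRAK4 activate first. Its values were 586, 559, 558, 1108, 928 and 1014 in wild type and 1210, 1220, 1628, 1290 and 1818 in Osmr-/-. The means were 792 ± 253 (SD, n = 6) and 1433 ± 275 (SD, n = 5), and the gap between wild type 4 and knock-out 1 was narrow. On the log2 scale the difference was 0.90 (SE 0.25), a level 1.86-fold higher. It was 1.24 within numbers 1 to 3 and 0.59 within numbers 4 to 6. Wild type 1 to 3 were all lower than wild type 4 to 6 for this gene. Among all tested genes, 1.09% had every Osmr-/- library above every wild-type library and 1.42% had every one below. For the 10 genes the counts were 1, Irak1, and 1, Sigirr, and since the genotype contrast chose them nothing is read from these counts.

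**Figure D3:**
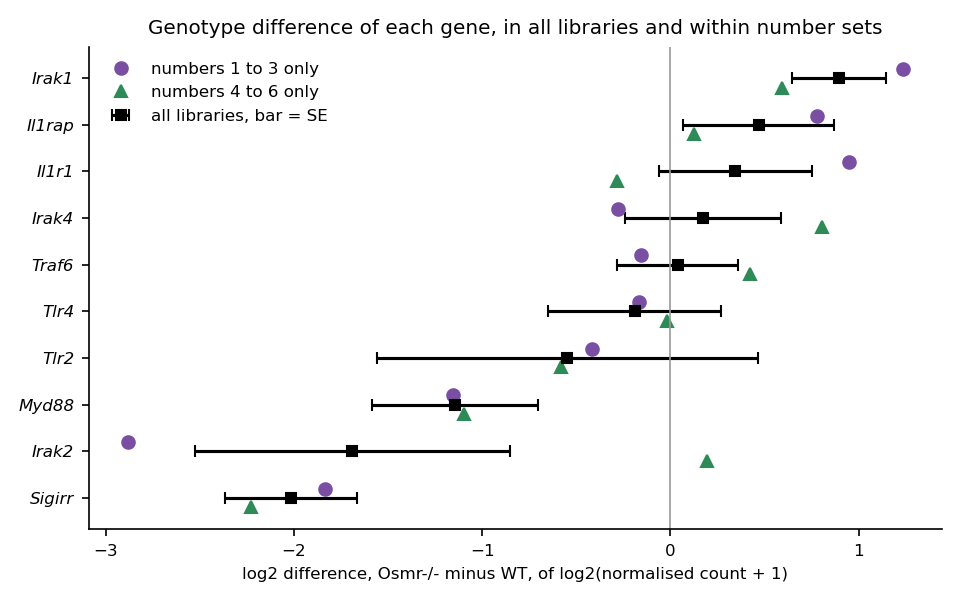
Difference between genotypes, Osmr-/- minus wild type, of log2(normalised count + 1) for each of the 10 genes: squares with SE bars for all 11 libraries, circles for numbers 1 to 3 and triangles for numbers 4 to 6. Sigirr, Il1rap, Tlr2, Tlr4, Myd88 and Irak1 keep their side of 0 in both sets. Irak2 is at -2.88 in numbers 1 to 3 and at 0.20 in numbers 4 to 6.

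The other 2 kinases and the ligase overlapped between genotypes. Irak2, a kinase of the same complex that prolongs NF-kB signalling, had 72.8, 58.8, 40.3, 89.3, 54.5 and 79.6 in wild type and 2.27, 4.73, 23.2, 101 and 69.3 in Osmr-/-. Knock-outs 1 to 3 lay under all wild-type values, whereas knock-out 5 lay above them. The difference of -1.69 (SE 0.84) was -2.88 within numbers 1 to 3 and 0.20 within numbers 4 to 6, and the lowest value rests on 2 reads. Without knock-out 1 it was -1.04. Irak4 encodes the kinase that starts the cascade. Its values were 191, 108, 181, 193, 111 and 123 in wild type and 190, 61.5, 179, 196 and 301 in Osmr-/-, with a difference of 0.17 (SE 0.41) that became -0.04 without knock-out 6. It was -0.28 within numbers 1 to 3 and 0.81 within numbers 4 to 6. Irak4 shares 395 exonic bases with Twf1 on the opposite strand. Traf6 had 359, 360, 360, 468, 550 and 392 in wild type and 247, 255, 530, 473 and 827 in Osmr-/-. Its means were close, at 415 ± 78.5 (SD, n = 6) and 466 ± 238 (SD, n = 5), but the coefficient of variation was 18.9% in wild type and 51.1% in Osmr-/-. The Traf6 difference of 0.04 (SE 0.32), at -0.16 and 0.43 within the number sets, turned negative when knock-out 3, 5 or 6 was left out.

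All 10 genes passed the filter on low values. Of these, 5 had a difference above 0 and 5 below, with a median of -0.08 beside -0.05 over all tested genes. The sign was the same in both number sets for 6 of the 10.

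Levels of different genes were set beside each other per kilobase of the longest annotated transcript. In wild type the order of mean levels was Irak1 (207 normalised counts per kilobase), Sigirr (168), Myd88 (135), Traf6 (67.2), Tlr4 (49.8), Irak4 (44.0), Il1rap (41.3), Tlr2 (30.4), Il1r1 (24.8) and Irak2 (20.6). Of the neighbours in this order, Myd88 and Traf6 alone differed by more than the SD of their difference over the 6 mice (67.4 ± 55.9, higher in 5 of 6). In Osmr-/- Irak1 stayed at the top with 374 normalised counts per kilobase, Traf6 was next with 75.6, and Sigirr took the sixth place with 43.4. Measured per kilobase of all exons joined, the 4 highest genes of wild type were the same 4, with Sigirr at 110 in the third place instead of the second.

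Promoter sequences from RefSeq (GRCm38.p6) had entries for 8 of the 10 genes, 10 windows of 300 bases in all, from 250 bases before the start to 50 after. Sigirr and Tlr4 had no entry. OSMR is known to signal through STAT3, so each window was searched for the STAT-type palindrome TTCNNNGAA, which reads the same on both strands. It occurred in 1 of the 10 windows, that of Myd88, and in 8.30% of all 32851 promoters. The 120 bases before the RefSeq start are shown for Myd88, whose level was lower in Osmr-/- by description, and for Irak1, whose level was higher. Capitals mark the match, which begins 46 bases before the RefSeq start of Myd88. In GENCODE M21, Myd88 runs over chr9:119335934-119341411 on the minus strand. By that annotation the stretch shown for Myd88 lies inside the gene and not before it.
Myd88, chr9:119340019-119340138, minus strand: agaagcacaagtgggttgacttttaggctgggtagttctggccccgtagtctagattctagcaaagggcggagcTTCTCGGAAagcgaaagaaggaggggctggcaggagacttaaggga
Irak1, chrX:74023919-74024038, minus strand: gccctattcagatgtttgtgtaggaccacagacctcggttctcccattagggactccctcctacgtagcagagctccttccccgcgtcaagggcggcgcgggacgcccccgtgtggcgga
The match is a description of letters and not a binding site, and its absence in the Irak1 window says only that these letters do not occur there.

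The remaining interleukin-1 and Toll pathway was followed in 7 lists of genes by function, 132 genes in all, of which 128 were in the table and 88 passed the filter. These genes are not among the 10, and they were tested with limma over all 13358 genes with Benjamini-Hochberg adjustment. At an adjusted p under 0.05, 0 of the 88 were higher and 0 lower. Over all tested genes 0.00749% passed as higher and 0.015% as lower, so a count of 0 is near the background. At an unadjusted p under 0.05, 7 were higher and 3 lower, which is 11.4% of the 88, beside 18.0% of all tested genes (7.50% higher and 10.5% lower). Of the 88 differences 43 (48.9%) were above 0, with a median of -0.02, beside 46.8% of all tested genes. The sign was the same in both number sets for 49 of the 88. With edgeR on the recovered reads the counts were 0 and 0. With DESeq2 on the same reads they were 1, Chuk, and 1, Nfkbia. Over 23 alternatives the adjusted p ran from 0.00764 to 0.205 for Chuk and from 0.0191 to 0.229 for Nfkbia.

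The IKK and NF-kB list held the lowest p-values of the pathway. Chuk encodes IKK alpha, a kinase subunit of the IKK complex. It had 628, 700.2, 662, 444, 611 and 656 normalised counts in wild type and 801, 1553, 1463, 1194 and 1061 in Osmr-/-. No library of the 2 genotypes overlapped, and the difference of 0.95 (SE 0.23), at 0.88 and 1.00 within the number sets, had a limma adjusted p of 0.0844. Ikbkb, which encodes IKK beta, had 723 ± 160 (SD, n = 6) and 1006 ± 52.5 (SD, n = 5), again without overlap, and a limma adjusted p of 0.235. Nfkbia encodes the inhibitor that holds NF-kB in the cytoplasm and is itself a target of NF-kB. Its values were 2337, 1630, 829, 1437, 1910 and 1276 in wild type and 955, 797, 807, 815 and 562 in Osmr-/-. Wild type 3 and knock-out 1 overlapped, and the difference of -0.94 (SE 0.26), at -0.79 and -1.16 within the number sets, had a limma adjusted p of 0.116. Of the 21 genes of this list, all of them tested, 9 were above 0 and 12 below, with a median of -0.15.

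Ligands were scarce. Of 15 ligands and antagonists, 11 were in the table and 2 passed the filter: Il18, at 847 ± 282 (SD, n = 6) and 869 ± 134 (SD, n = 5), and its binding protein gene Il18bp, at 346 ± 155 and 326 ± 182. The Il18bp difference turned from -1.81 within numbers 1 to 3 to 1.00 within numbers 4 to 6. Il1a had reads in 4 of the 11 libraries and Il1b in 5, with at most 31.2 and 20.6 normalised counts. Of the other receptor chains of the family 5 were tested, all with differences below 0 and a median of -1.40, and none passed the limma threshold. Il18rap, the accessory chain gene of the interleukin-18 receptor, was the most abundant at 237 ± 91.5 (SD, n = 6) and 238 ± 122 (SD, n = 5), a difference of -0.06, and Il1rl2 was at 81.8 ± 51.5 and 87.2 ± 54.7, a difference of -0.02. The other 3 were lower and uneven. Il1rl1, the interleukin-33 receptor gene, was at 35.2 ± 32.7 and 10.9 ± 23.1, Il18r1 at 33.8 ± 25.0 and 24.3 ± 38.3, and Il1rapl2 at 68.2 ± 80.7 and 26.3 ± 36.3, each at 0 in at least 1 library.

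Among Toll-like receptors and their cofactors, 2 of 8 tested genes were above 0. Ly96 encodes MD-2, which Tlr4 needs to bind lipopolysaccharide, and had 625 ± 434 (SD, n = 6) in wild type and 1263 ± 520 (SD, n = 5) in Osmr-/-, a difference of 1.25 (SE 0.47) with a limma adjusted p of 0.196. Tlr3 was at 45.0 ± 24.3 and 35.7 ± 33.4, and Lbp, the lipopolysaccharide binding protein gene, at 369 ± 150 and 270 ± 103. The co-receptor gene Cd14 had reads in 5 wild-type libraries and in no Osmr-/- library, with at most 46.4 normalised counts and 138 reads in all. Every wild-type library had reads for more genes than every Osmr-/- library. The share of all genes that split as Cd14 did is not given here, so nothing is read from this split.

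Adaptors and proximal signalling genes went both ways, 13 above 0 and 8 below. Irak3, a kinase-like inhibitor of the IRAK complex, was at 439 ± 174 (SD, n = 6) and 695 ± 136 (SD, n = 5), a difference of 0.78 (SE 0.35). Peli1, a ubiquitin ligase gene of the same complex, was at 663 ± 203 and 976 ± 161, and Sharpin, a subunit gene of the linear ubiquitin ligase, at 391 ± 119 and 223 ± 101. The limma adjusted p of these 3 ranged from 0.204 to 0.259. In the MAP kinase branch 7 of 13 were above 0. Mapk8, which encodes JNK1, was at 514 ± 272 and 910.4 ± 205, Mapk9, which encodes JNK2, at 647 ± 188 and 453 ± 223, and the phosphatase gene Dusp1 at 178 ± 46.0 and 107 ± 56.5. The Mapk8 difference was 1.79 within numbers 1 to 3 and 0.11 within numbers 4 to 6. Of the NF-kB and interleukin-1 response genes 11 of 18 tested were above 0. The chemokine gene Ccl4 was at 993 ± 513 and 1684 ± 358, Spi1, the myeloid transcription factor gene, at 766 ± 397 and 435 ± 202, and Bcl2a1b, a survival gene, at 4.45 ± 5.46 and 11.1 ± 6.30. The list spanned a wide range of levels, from Sod2, the mitochondrial superoxide dismutase gene, at 1920 ± 842 and 1513 ± 658, to cytokine genes that failed the filter, such as Tnf with reads in 6 libraries, Il6 in 1 and Cxcl1 in none.

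**Figure D4:**
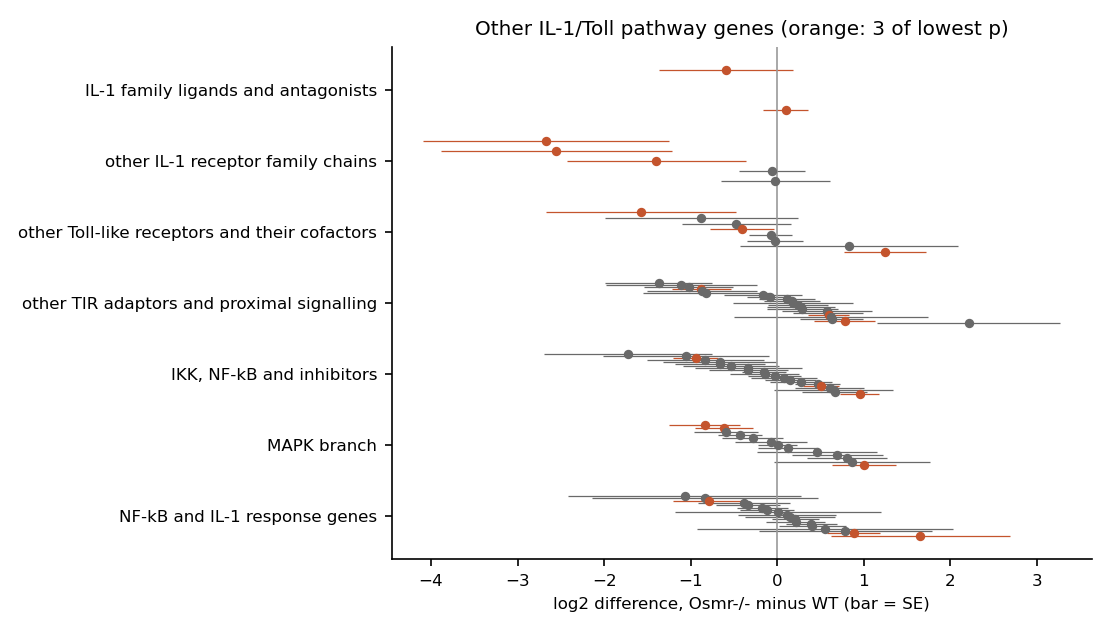
Difference between genotypes, Osmr-/- minus wild type, of log2(normalised count + 1) for the 88 tested pathway genes, grouped by list, with SE bars; orange marks the 3 genes of lowest p in each list. Points lie on both sides of 0 in every list except the 5 receptor chains, which are all below it, and no gene passed the limma threshold.

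The genes whose pattern was most like that of Sigirr were ranked by Pearson's r of log2(normalised count + 1) over the 11 libraries, among 10746 genes with a mean of at least 50 normalised counts. The libraries share the genotype difference that chose Sigirr, so r is a description and partly follows it. Grb2, an adaptor gene of growth factor receptors, had the highest r, 0.94 (Spearman's rho 0.95), and 0.91 after the mean of each genotype was subtracted. Its values were 681, 671, 659, 801, 825 and 567 in wild type and 595, 202, 397, 374 and 395 in Osmr-/-. Like Sigirr, it was highest among the Osmr-/- libraries in knock-out 1 and lowest in knock-out 2. Slc29a1, a nucleoside transporter gene, Rab19, Sgta and Sdf2 followed with r of 0.92, 0.92, 0.91 and 0.91. Chuk had the lowest r, -0.96 (Spearman's rho -0.96), and -0.85 after the genotype means were subtracted. After it came Micu3 (-0.95), Myo5c (-0.92), Skp2 (-0.92) and Rab10 (-0.91). With the genotype means subtracted, the highest r belonged to Ormdl3 (0.96), Mfng (0.93), Grb2 (0.91), Arhgap31 (0.91) and Vdr (0.87). Knock-out 1 had the highest value of the Osmr-/- libraries for Ormdl3 (467), Mfng (372) and Grb2 alike. None of the other 9 genes of the signalling chain was among these, and their r with Sigirr ran from -0.68 for Irak1 to 0.56 for Myd88.

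**Figure D5:**
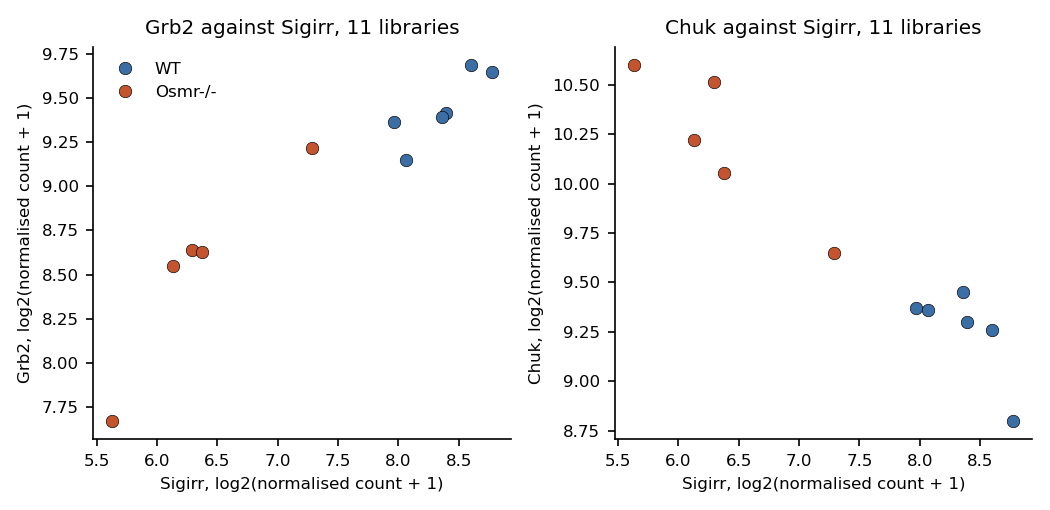
Log2(normalised count + 1) of Grb2 (left) and Chuk (right) on the vertical axis against that of Sigirr on the horizontal axis, 1 point per library, 6 wild type and 5 Osmr-/-. Grb2 runs up with Sigirr (r of 0.94) and Chuk runs down (r of -0.96), and the genotypes form separate groups along the Sigirr axis.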

How the data were processed

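PolyA+ RNA of 1000 sorted cells per mouse was amplified for 13 to 18 PCR cycles, with 12 more cycles for the library, per the labels' protocols. Trimmomatic 0.36.6, FastQC 0.72, HISAT2 2.1.0, HTSeq 0.9.1, a DESeq2 wrapper 2.11.40.6 and the mm10 build are named in the submitters' processing notes. In the sources used here the annotation and the strand setting are not given.

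The authors deposited normalised counts (a signal: reads divided by a size factor per library), regularised and variance stabilised log2 values, and a result table with log2 fold changes, standard errors, Wald scores and p-values. The deposited tables hold 11 libraries. All values (100%) were whole multiples of 1 read, within 1.4e-09 reads, and gave the reads for edgeR 4.0.16 and DESeq2 1.42.0. A floor of 3 reads equals 1.56 to 3.87 normalised counts, and it covers counting error only, since PCR reads carry no molecular identifiers.

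Genes with at least 10 normalised counts in at least 5 libraries were fitted with limma 3.58.1 (R 4.3.3) on log2(normalised count + 1) with genotype only, two-sided, with Benjamini-Hochberg adjustment over all 13358 genes and a threshold of 0.05. The fit was also run on simulated counts with the same spread setting for all genes and no number sets. That trial cannot show how the fit does on genes as uneven as these. Named are all 10 chosen genes; in each pathway list the genes past the threshold, otherwise the 3 of lowest p; the 5 genes on each side of Sigirr; and the 5 of highest and of lowest r. The low receptors, ligands and response genes, Il18rap, Il1rl2, Sod2, Rhd, Klf1, Car1, Car2, and the granulocyte genes were named after their values were seen. The chosen genes and the lists were picked with earlier results of these data known. Replicates were separate mice, per the labels. Replicate numbers did not pair the samples. Alternatives were other pseudocounts, filters, scalings, the authors' log2 values, count models, a replicate block, the number sets as a covariate, and each mouse left out in turn. Coordinates come from GENCODE M21. No protein sequence is shown.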

Additional observations from a re-analysis of the deposited data

Results flagged for a closer look

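In 20 groups of values, 10 genes in each of 2 genotypes, the highest or lowest library was set against the rest. With Dixon's 95% critical value on normalised counts, and not on the log2 scale, 2 values passed. Chance alone passes it in about 1 group of 20 if values spread normally, which counts as skewed as these need not do. Tlr2 in wild type 5 was at 390 normalised counts, and its gap to the nearest library was 0.854 of the whole range of the group. Tlr4 in knock-out 6 was at 352 normalised counts, with a gap of 0.730 of the range. On the log2 scale the gaps take up less of the range. Tlr2 was at 8.61 in wild type 5, beside 5.93 in wild type 4 and 2.04 in wild type 6. Tlr4 was at 8.46 in knock-out 6, beside 7.37 in knock-out 1 and 6.58 in knock-out 2.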

How the results depend on the processing

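The log2 difference of Sigirr kept its sign in all 23 alternatives. It was -1.22 with the authors' regularised log2 values, -1.47 with their variance stabilised log2 values, and -2.25 to -1.84 with each mouse left out in turn. Irak1 ran from 0.63 to 1.01, Myd88 from -1.43 to -0.72 and Irak2 from -2.28 to -0.49, without a change of sign. Il1r1 ran from 0.19 to 0.58 and Il1rap from 0.26 to 0.66. Signs changed for Tlr2, Tlr4 and Irak4 without 1 library each and for Traf6 without any 1 of 3, as given above. In the authors' deposited table, turned to Osmr-/- over wild type, the log2 fold changes were -1.75 for Sigirr, -0.93 for Myd88, 0.80 for Irak1 and -0.44 for Irak2.

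Counts over all genes moved with nearly every choice, from 1 higher and 2 lower. They were 13 and 42 with a pseudocount of 10, 14 and 42 with quantile scaling, 18 and 51 with regularised and 17 and 49 with variance stabilised values, 139 and 314 with DESeq2, and 133 and 204 when the number set was a covariate. They were 0 and 0 with no filter, and 0 and 0 with a filter at 50. The lower count was 1 with a pseudocount of 0.5 and 1 with edgeR. Leaving out each mouse gave 0 to 34 higher and 0 to 91 lower, the highest of both without wild type 6. For the pathway lists, DESeq2 gave 1 higher and 1 lower, and a covariate for the number set gave 1 higher, Chuk. The cause was not tested. With the replicate block the counts over all genes were 0 and 0. Same-numbered mice had correlations of deviations of 0.0203 to 0.0986 over genes, and 1 of 5 knock-outs correlated best with its own number.

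Reads per library, 41 at the fewest for Sigirr but 3 for Tlr2 and 2 for Irak2, limit the precision of the last 2.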
